A study of Caenorhabditis elegans with 2 samples.

Results

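Small nucleolar RNA (snoRNA) genes that stand outside protein-coding genes of the nematode Caenorhabditis elegans were examined for binding of NPAX-4, whose family is defined by the paired DNA-binding domain. Genes of biotype snoRNA were taken from the Ensembl annotation of the WBcel235 assembly, and a gene was counted as outside when its body was not wholly between the start and the end of any protein-coding gene on either strand. This rule, which uses no binding value, gave 130 of the 346 annotated snoRNA genes, among 46890 annotated nuclear genes, and left 216 inside. Chromatin immunoprecipitation and sequencing (ChIP-seq) had been done on whole late embryos of the hermaphrodite strain OP493, unc-119(tm4063) III with the transgene wgIs493, which expresses NPAX-4 with GFP and FLAG at its C terminus. Embryos were collected 4 h after synchronisation by egg bleaching, chromatin was sheared with a sonicator microtip, and an anti-GFP antibody was used. The 2 samples were biological replicates of this 1 condition, so no treatment or genotype contrast exists, and the transgene's promoter is not given in the sources used here. All cells of the embryo were mixed, so that binding in few cells and weak binding in many cannot be told apart.

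SnoRNAs guide chemical modification of ribosomal and other RNAs in the nucleolus. Box C/D snoRNAs direct 2′-O-methylation by fibrillarin, and box H/ACA snoRNAs direct pseudouridylation by dyskerin. Many animal snoRNAs are cut from introns of a host gene, whereas genes outside a host need a promoter of their own. RNA polymerase III transcribes tRNA genes from a pair of internal elements, the A box and the B box, which the factor TFIIIC binds, and stops at a run of T. In budding yeast the snoRNA gene SNR52 carries such elements upstream of the mature snoRNA.

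A gene was scored as having a reproducible peak when the summit of a region in the authors' optimal list, which keeps regions below a limit on the irreproducible discovery rate (IDR), lay within 500 bp of its body. Of the 130 genes, 22 had one. Letters resembling the A and B boxes of tRNA genes stood at or just upstream of the 5′ end of many of them. The count ran from 11 of 22 by fixed patterns to 21 of 22 by a graded score, whose window reached 15 bases into the gene. F59C6.15 was without such letters by either measure. The 8 with the highest signal among the genes of chromosomes II to V are shown to let this be read directly. Genes not shown include 2 that are less tRNA-like, ZK265.10, with the next highest signal after W03C9.9 and a score of 2.37, and F59C6.15, with a score of -15.2. Each sequence runs from 85 bases before the snoRNA 5′ end to the first 15 bases of the snoRNA, 5′ to 3′ along the gene, on WBcel235. Capitals mark the best-scoring A-box-like stretch of 10 bases and B-box-like stretch of 11 bases, found as described with the scores further on.

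W03C9.9, chrII:11960813-11960912, plus strand: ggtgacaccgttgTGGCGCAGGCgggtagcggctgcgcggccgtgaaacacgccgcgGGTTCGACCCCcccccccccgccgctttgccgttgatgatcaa
T06C12.16, chrV:15873912-15874011, minus strand: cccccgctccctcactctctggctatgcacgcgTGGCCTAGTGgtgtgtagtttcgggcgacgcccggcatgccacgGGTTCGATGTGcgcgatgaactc
F32E10.10, chrIV:7574037-7574136, plus strand: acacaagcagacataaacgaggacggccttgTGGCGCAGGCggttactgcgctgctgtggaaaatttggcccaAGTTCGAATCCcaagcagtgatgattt
H09I01.2, chrIV:8253009-8253108, plus strand: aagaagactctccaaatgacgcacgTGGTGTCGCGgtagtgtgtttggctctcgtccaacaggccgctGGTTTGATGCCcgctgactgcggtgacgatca
C46C2.8, chrIV:9191319-9191418, minus strand: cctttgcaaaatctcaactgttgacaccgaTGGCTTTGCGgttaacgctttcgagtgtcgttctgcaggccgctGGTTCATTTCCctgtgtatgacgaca
ZK643.9, chrIII:8937682-8937781, plus strand: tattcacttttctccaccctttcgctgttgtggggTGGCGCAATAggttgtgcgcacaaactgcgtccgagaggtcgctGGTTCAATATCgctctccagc
F30H5.4, chrIII:502719-502818, plus strand: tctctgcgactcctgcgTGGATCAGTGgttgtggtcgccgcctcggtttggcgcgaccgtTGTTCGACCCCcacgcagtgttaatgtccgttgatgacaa
C41C4.11, chrII:8107256-8107355, minus strand: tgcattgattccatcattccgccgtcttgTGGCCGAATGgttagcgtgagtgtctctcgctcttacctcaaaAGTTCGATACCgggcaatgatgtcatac

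The next set shows the same window for genes without a reproducible peak. C01B10.48 and ZK20.9 had the highest joint-list signal among those, and hold no pair of letters scoring above 0. Y59E1B.14 was chosen after its score was seen, because its upstream letters scored like those of a tRNA gene although it had no region in any list. Those letters lie within an annotated tRNA pseudogene.

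C01B10.48, chrIV:6645735-6645834, minus strand: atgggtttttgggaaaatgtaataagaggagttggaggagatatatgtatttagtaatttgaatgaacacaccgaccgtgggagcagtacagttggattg
ZK20.9, chrII:11635140-11635239, plus strand: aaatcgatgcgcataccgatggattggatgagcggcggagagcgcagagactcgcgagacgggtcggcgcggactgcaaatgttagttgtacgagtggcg
Y59E1B.14, chrX:1891424-1891523, plus strand: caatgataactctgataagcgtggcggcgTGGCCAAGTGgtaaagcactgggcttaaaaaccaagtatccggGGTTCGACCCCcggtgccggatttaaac

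The whole locus of W03C9.9, the gene with the highest signal, shows the arrangement, with the snoRNA gene in capitals. The tRNA-like letters stand before it, and a run of T follows its 3′ end directly.

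W03C9.9 with flanks, chrII:11960778-11960979, plus strand: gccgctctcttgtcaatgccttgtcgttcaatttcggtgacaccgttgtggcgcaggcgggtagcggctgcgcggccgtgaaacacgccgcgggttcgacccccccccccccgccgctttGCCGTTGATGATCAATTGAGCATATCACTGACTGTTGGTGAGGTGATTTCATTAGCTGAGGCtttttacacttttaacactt

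The first question was how often NPAX-4 regions lay at these genes. The 22 genes with a reproducible peak were 16.9% of the 130 (95% exact Clopper-Pearson interval 10.9 to 24.5%), against 1.61% of all nuclear genes. In the relaxed list made from both replicates together, the joint list, 52 genes (40%, interval 31.5 to 49%) had a summit, where 22.6% of all nuclear genes did. The relaxed lists of the single replicates were less selective. In replicate 1, 58 genes (44.6%) had a region, with 31% of all nuclear genes, and in replicate 2, 68 genes (52.3%) had one, with 30.9% of all nuclear genes. Protein-coding genes had a summit in 34.5% of cases in the joint list, 46.7% in replicate 1 and 46% in replicate 2. The members thus stood well above all nuclear genes in the optimal list and closer to them in the relaxed lists. By distance from the gene body, their relaxed-list shares were near those of protein-coding genes and in replicate 1 below. That distance gives longer genes a wider window, so classes of unlike gene length are not compared evenly. Within 500 bp of the 5′ end alone, 51 members (39.2%) had a joint-list region. Protein-coding genes then had one in 15.8% of cases, and all nuclear genes in 13.8%. Coding shares by the 5′ end are not given here for the single replicates. The relaxed lists left 44 of the 130 genes with no summit at all. The matching count over all nuclear genes is not given here, so this number describes the members only.

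The snoRNA genes inside protein-coding genes gave a similar share, with 30 of 216 (13.9%, interval 9.57 to 19.2%). The difference of 3.03 percentage points had an interval from -5.0 to 11.7, combined from both exact intervals, and it was not tested further. Among other small RNA genes, 141 of 612 tRNA genes (23.0%, interval 19.8 to 26.6%) and 8 of 129 snRNA genes (6.2%, interval 2.72 to 11.9%) had a reproducible peak. Protein-coding genes had one in 365 of 19973 cases (1.83%). Genes are not independent samples and intervals cover counting error only, so these shares describe 1 pair of libraries.

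**Figure D1:**
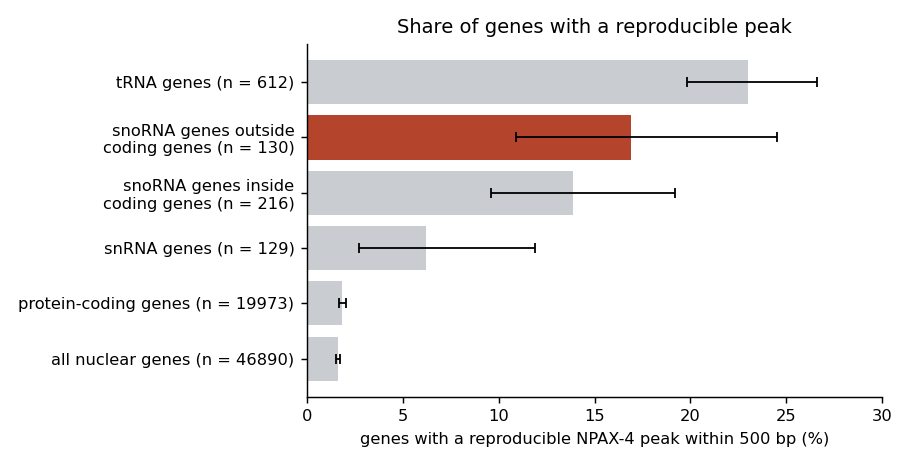
Share of genes with a reproducible NPAX-4 peak within 500 bp of the gene body (percent, horizontal axis) by gene class, with 95% exact binomial intervals as error bars and the number of genes in brackets. The snoRNA genes outside coding genes stood at 16.9%, between tRNA genes at 23.0% and snoRNA genes inside coding genes at 13.9%, and all nuclear genes stood at 1.61%.

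Both replicates listed every one of the 22 genes. The optimal list was made from these same replicates with a limit on irreproducibility. The presence and high rank of the 22 in each replicate thus follow in large part from that choice, and are no independent measure of agreement. When each replicate's list was restricted to its 354 regions of highest signal, the length of the optimal list, 22 genes (16.9%, all nuclear genes 1.62%) had a region in replicate 1 and 21 (16.2%, all nuclear genes 1.55%) in replicate 2. Of the 22 genes with a reproducible peak, 21 were within that range in replicate 1, 21 in replicate 2 and 20 in both. The exceptions were K02C4.8, at rank 706 of replicate 1, and C53B7.8, at rank 541 of replicate 2. F47G4.9, without a reproducible peak, stood at rank 300 in replicate 1 and rank 17951 in replicate 2. By distance from the 5′ end alone, again within 500 bp, the same number of genes, 22, was scored, against 1.2% of all nuclear genes.

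The signal value of a region is the authors' own and its scale is not given, so values were read within a list only. The genes' regions ranged from 82.7 to 514 in the joint list, with a median of 171, against a median of 115 over the whole optimal list. Member summits made up 5 of the 25 regions of highest signal in the optimal list, 7 of the 50 highest and 13 of the 100 highest. The optimal list consisted of the 354 highest regions of the joint list. Its last region had signal 76.412 and the first one left out 76.405, and neither lay within 500 bp of a member.

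W03C9.9, on chromosome II from 11960898 to 11960959, had the highest joint signal, 514, with 256 in replicate 1 and 256 in replicate 2. ZK265.10, on chromosome I, had a joint signal of 468, with 236 in replicate 1 and 233 in replicate 2. T06C12.16, on chromosome V, had a joint signal of 439, with 260 in replicate 1 and 182 in replicate 2. These 3 genes held ranks 6 to 8 of the joint list, and each was among the 10 highest regions of either replicate. T02E1.9 followed with 315, from 150 in replicate 1 and 164 in replicate 2. F32E10.10 had 273, from 129 in replicate 1 and 135 in replicate 2. The first of these overlaps the protein-coding gene spe-12 on the opposite strand, and the second lies between clec-180 and F32E10.5.

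Further down, T19B4.8 had a joint signal of 225, with 119 in replicate 1 and 107 in replicate 2. H09I01.2 also had 225, with 119 in replicate 1 and 102 in replicate 2. C46C2.8 had 195, with 96.6 in replicate 1 and 97.4 in replicate 2. The first of these is one of 6 genes overlapped by an annotated non-coding RNA gene. ZK643.9 had 194, with 104 in replicate 1 and 89.6 in replicate 2. T27A3.9 had 193, with 110 in replicate 1 and 79.7 in replicate 2. F30H5.4 had 175, with 89.5 in replicate 1 and 88.5 in replicate 2. The last of these lies 178 bp from unc-45, which encodes a myosin chaperone. C41C4.11 (167), Y75B12B.12 (164), F12F6.11 (143), Y23H5B.10 (136), Y39G10AR.24 (136), Y53F4B.48 (133), W01C9.6 (123), T10B9.11 (117) and F59C6.15 (101) had lower joint signals. In these 9 genes the signal ranged from 44.9 to 101 in replicate 1 and from 51.1 to 85.9 in replicate 2. At the low end, K02C4.8 had 86.3, with 34.1 in replicate 1 and 47.5 in replicate 2. C53B7.8 had 82.7, with 43.6 in replicate 1 and 33.8 in replicate 2.

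**Figure D2:**
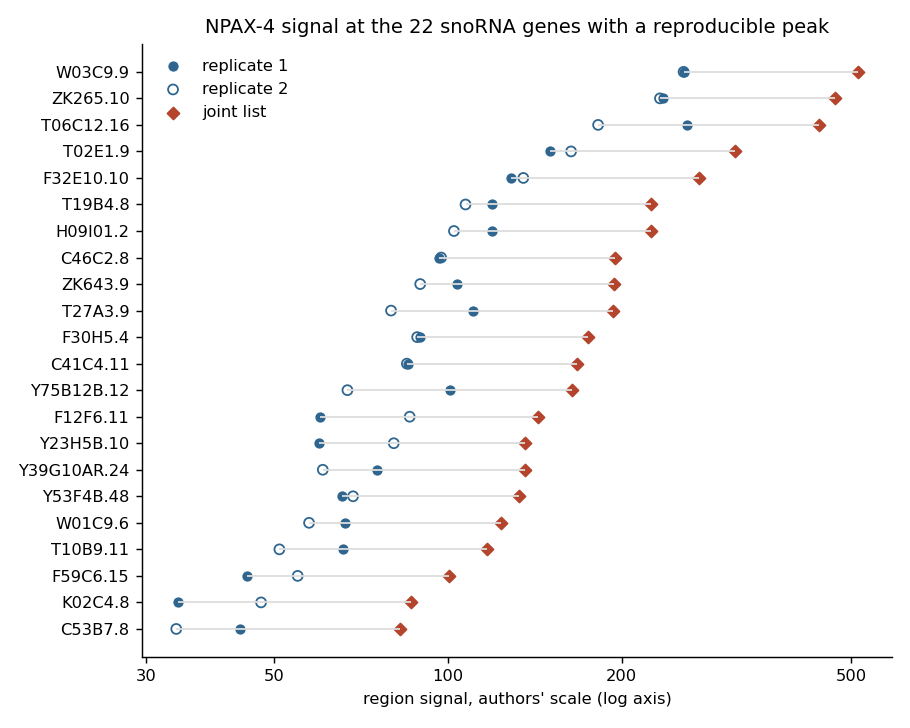
Signal of the NPAX-4 region (horizontal log axis, authors' scale) at each of the 22 genes in replicate 1, replicate 2 and the joint list, in order of joint signal. The joint values fall from 514 at W03C9.9 to 82.7 at C53B7.8, and the 2 replicates give a broadly alike order of genes, with their lowest values at K02C4.8 (34.1 in replicate 1) and C53B7.8 (33.8 in replicate 2).

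The 22 genes were spread over all chromosomes. Shares were 7 of 30 on chromosome I, 6 of 28 on II, 2 of 10 on III, 4 of 23 on IV, 2 of 16 on V and 1 of 23 on X. On the autosomes together, 21 of 107 genes (19.6%, interval 12.6 to 28.4%) had a peak, and on the X chromosome the share was 4.35% (interval 0.11 to 21.9%). The intervals overlap, and the difference was not tested. Shares over all nuclear genes of each chromosome are not given here. A trait of the members therefore cannot be told apart from one of the whole chromosome.

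The summits lay close to the snoRNA 5′ end. Of the 22, 20 were upstream of it and 2, at Y53F4B.48 and K02C4.8, were within the gene body. The median position was -45.5 bp, with a range from -120 to 25 bp, where negative values are upstream along the gene's strand. In the replicates the medians were -35 bp and -47.5 bp, and the same gene's summits in replicate 1 and replicate 2 differed by a median of 22 bp (range 1 to 63 bp). This spread sets how finely a position can be read. At W03C9.9 the 3 summits were at -99, -100 and -98 bp, whereas at ZK643.9 the joint summit was at -8 bp, between 25 bp in replicate 1 and -35 bp in replicate 2.

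Genes with a joint-list region but no reproducible peak had summits spread more widely. Their 30 summits lay from -483 to 593 bp, with a median distance of 214 bp from the 5′ end, and 19 of 30 were upstream. Within 130 bp upstream to 30 bp downstream of the 5′ end were 8 of these 30 summits, 22 of the 22 summits of reproducible peaks, whose range set the limits, and 26 of the 30 at snoRNA genes inside coding genes. The latter had a median position of -41 bp. The 5 with the highest joint signal were C01B10.48 (72.0, summit at -245 bp), ZK20.9 (65.5, at 105 bp), Y17G7B.25 (60.4, at -215 bp), F47G4.9 (59.9, at -82 bp) and C26C6.13 (55.8, at -473 bp).

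**Figure D3:**
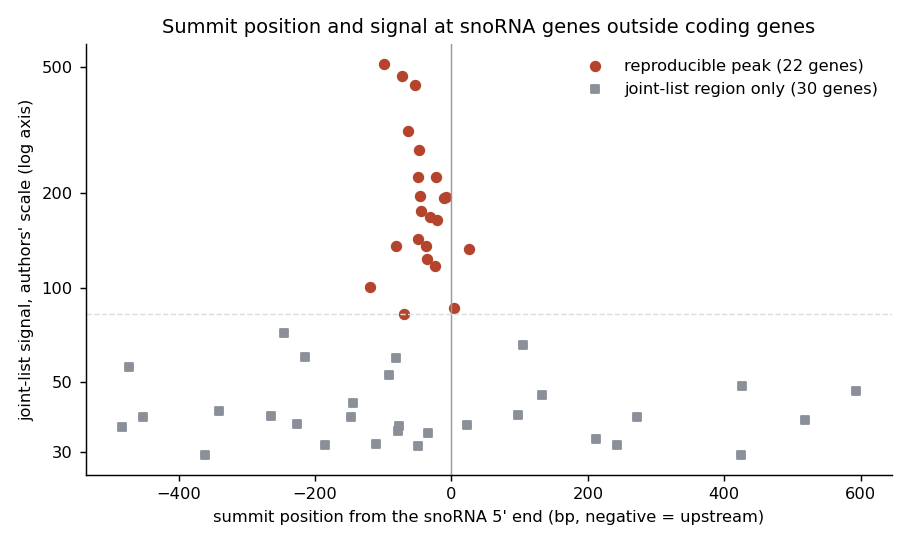
Position of the NPAX-4 summit from the snoRNA 5′ end (bp, horizontal axis) against joint-list signal (log axis, authors' scale) for 22 genes with a reproducible peak and 30 genes with a joint-list region only; the dashed line marks the lowest signal of the 22. Summits of reproducible peaks sit between -120 and 25 bp, and the others scatter from -483 to 593 bp.

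The regions lay nearer to the snoRNA genes than to the starts of neighbouring coding genes. In all, 23 regions of the optimal list lay within 500 bp of a member, and all 23 had a summit nearer to a snoRNA 5′ end than to any protein-coding 5′ end. Closeness to a snoRNA gene was in part set by this choice of regions. Distances to coding genes are not given here for all regions of the list, so the counts below describe the members only. The summits of the 22 genes were at a median of 1192 bp from the nearest protein-coding 5′ end (range 182 to 16259 bp), and 12 of 22 were more than 1000 bp away. Coding promoters, taken as 500 bp upstream to 100 bp downstream of the 5′ end, held 5 of the 22 summits. These were the promoters of T02E1.2, chst-1, Y75B12B.11, gst-27 (a glutathione S-transferase) and K02C4.2, with summits at -456, -331, -182, -272 and -247 bp from the coding 5′ end. At these 5 genes binding at the coding promoter and at the snoRNA gene cannot be told apart by position.

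Other small RNA genes were absent from the neighbourhoods of the 22. None of the 22 genes (0 of 22) had a tRNA, snRNA, rRNA or microRNA gene, or another snoRNA gene, within 500 bp, while 6 of the 108 genes without a reproducible peak had a gene of the first 4 kinds there. RefSeq also lists 209 nuclear tRNA pseudogenes, and none lay within 500 bp of the 22. No region was shared with an inside snoRNA gene (0 of 23) or with a tRNA gene (0 of 23). Over the whole optimal list, 28 of 354 regions lay near inside snoRNA genes and 126 of 354 had a tRNA gene within 500 bp. A protein-coding gene overlapped the snoRNA gene in part at 3 of the 22, namely spe-12 at T02E1.9, T27A3.8 at T27A3.9 and glb-27, a globin gene, at W01C9.6.

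The letters upstream of the genes were then compared, first as fixed patterns within 150 bases of the 5′ end on the gene's strand. The A-box pattern was TGG, any 3 bases, A, any 2 or 3 bases, then GG. It was found upstream of 15 of 22 genes with a reproducible peak (68.2%, interval 45.1 to 86.1%), 7 of 108 without (6.48%) and 2.5% of all nuclear genes. The B-box pattern, GTTCNA, was found upstream of 14 of 22 (63.6%), 14 of 108 (13.0%) and 14.9% of all nuclear genes. A pair, with the A-box pattern starting 30 to 60 bases before the B-box pattern, was upstream of 11 of 22 genes with a peak (50%, interval 28.2 to 71.8%), 1 of 108 without (0.926%), and 0.132% of all nuclear genes. Reading the opposite strand of the same windows found no pair at the 22 (0 of 22) or at the 108 (0 of 108), and one at 0.151% of all nuclear genes. The patterns were chosen after the upstream sequences had been read, and a match describes letters only.

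The pairs were placed alike from gene to gene. In the 11 genes the B-box letters started a median of 14 bases before the snoRNA 5′ end (range 27 to 7 bases before it), and the A-box letters started a median of 44 bases before the B-box letters (range 39 to 45). Among the bodies of the 342 tRNA genes that hold such a pair, of 612 annotated, the spacing also had a median of 44, with quartiles of 44 and 45.

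A graded measure covered letters that depart from these patterns. Base frequencies of the 10 bases from the A-box start and of the 11 bases around the B-box letters were taken from 341 annotated tRNA genes. No binding value entered these frequencies. The tRNA genes were those holding a pair of the fixed patterns, so the score is not independent of the reading of the upstream sequences. Each window, from 150 bases upstream to 15 bases into the gene, received the highest sum of log2 odds for an A-like and a B-like stretch starting 30 to 60 bases apart. The 15 bases were kept so that B-box letters next to the 5′ end were not cut. A score above 0 means that the letters are likelier under the tRNA frequencies than under equal base frequencies, and 610 of 612 tRNA gene bodies (99.7%) passed it.

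By this score 21 of the 22 genes with a reproducible peak were above 0 (95.5%, interval 77.2 to 99.9%), as were 5 of the 108 without one (4.63%, interval 1.52 to 10.5%). At the stricter limit of 11.8, the score at the lowest 5% of tRNA gene bodies, 13 of 22 (59.1%, interval 36.4 to 79.3%), 1 of 108 (0.926%) and 0.181% of all nuclear genes passed. For scores above 0, over all nuclear genes the share was 1.96%, and over protein-coding genes 1.8%. The median score was 14.9 in the 22 genes, -15.4 in the 108, -16.3 over all nuclear genes and 26.8 in tRNA gene bodies. On the opposite strand the median of the 22 genes was -16.1, and 1 of 22 was above 0. Seen from the sequence, 21 of the 26 members with a score above 0 had a reproducible peak, and 1 of the 104 other members did. Among inside snoRNA genes scoring above 0, 23 of 40 had one. The same share over all nuclear genes scoring above 0 is not given here. The GC content of the 150 bases upstream was also higher in the 22, with a median of 49.3% against 44.0% in the 108, and its part in the scores was not tested.

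The highest scores were 27.6 at T19B4.8, 26.4 at Y75B12B.12 and 24.8 at Y39G10AR.24. The lowest above 0 were 1.05 at K02C4.8, 2.37 at ZK265.10 and 4.73 at Y53F4B.48. Score and signal did not follow the same order, since ZK265.10 had the next highest signal after W03C9.9, whose own score was 16.6. F59C6.15 was the exception among the 22, with a score of -15.2, a joint signal of 101 and the summit farthest upstream, at -120 bp. In the best pair of 20 of the 22 genes the 2 stretches started 43 to 45 bases apart, against 15 of the 108 and 373 of 612 tRNA genes. The B-like stretch started within 30 bases of the snoRNA 5′ end in all 21 genes with a score above 0, and the joint summit lay between the start of the A-like and the end of the B-like stretch in 14 of these 21.

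**Figure D4:**
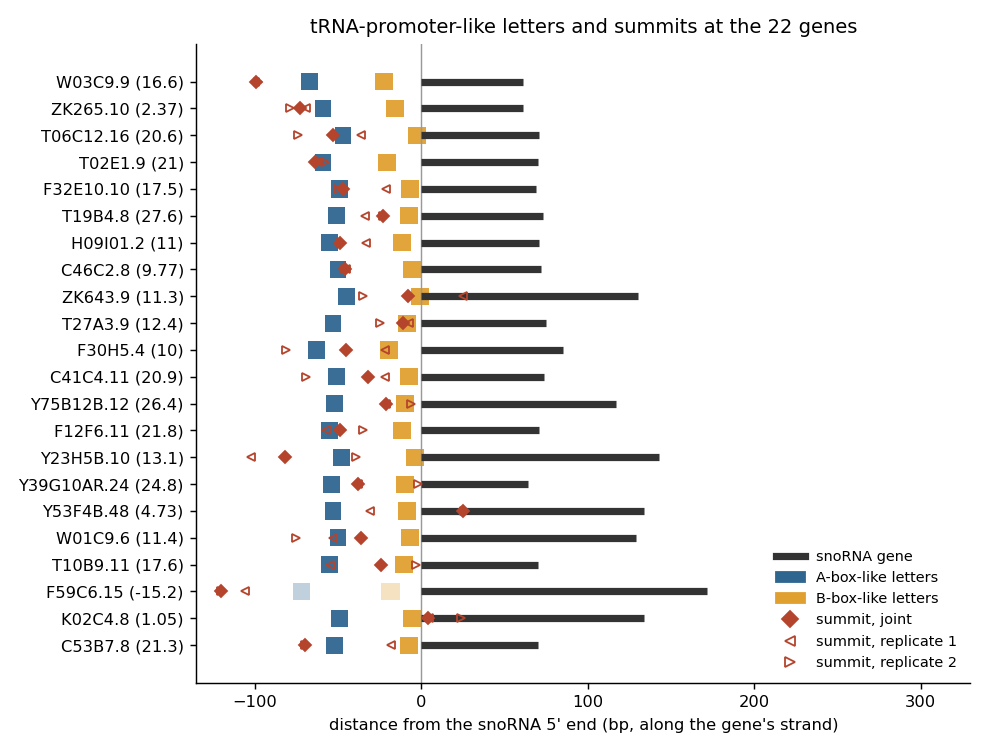
Positions of the best-scoring A-box-like (blue) and B-box-like (yellow) letters, the snoRNA gene (black bar) and the summits of the joint list and of each replicate (red symbols), in bp from the snoRNA 5′ end along the gene's strand; the score stands in brackets after each name and letters with a score below 0 are pale. The letters stand in nearly the same place at 21 of the 22 genes, and F59C6.15, with a score of -15.2, is the exception. At ZK643.9, T06C12.16 and Y23H5B.10 the B-box-like stretch runs across the 5′ end into the gene.

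The 5 members that scored above 0 without a reproducible peak were Y59E1B.14 (22.1), ZC395.12 (11.8), K09E9.5 (9.42), T27A8.9 (2.41) and C06E7.95 (1.16). Y59E1B.14, K09E9.5 and T27A8.9 lie on chromosome X, ZC395.12 on III and C06E7.95 on IV. None of these 5 had a region in the joint list, and K09E9.5 alone had one in a single replicate, with signal 25.7 in replicate 1. Y59E1B.14, shown with the sequences, overlaps by 9 bases a tRNA pseudogene that RefSeq lists on chromosome X from 1891446 to 1891517 on the same strand. Both of its scored stretches lie within that pseudogene, so its score is that of the pseudogene's own letters. Of the 209 nuclear tRNA pseudogenes, 3 (1.44%) had a reproducible peak.

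The snoRNA genes inside protein-coding genes were scored in the same way. A score above 0 was found at 23 of the 30 with a reproducible peak (76.7%, interval 57.7 to 90.1%) and at 17 of the 186 without (9.14%), with medians of 13.9 and -14.9. Of the inside genes scoring above 0, 23 of 40 had a peak, where 21 of 26 outside did, and the difference between outside and inside genes was not tested.

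**Figure D5:**
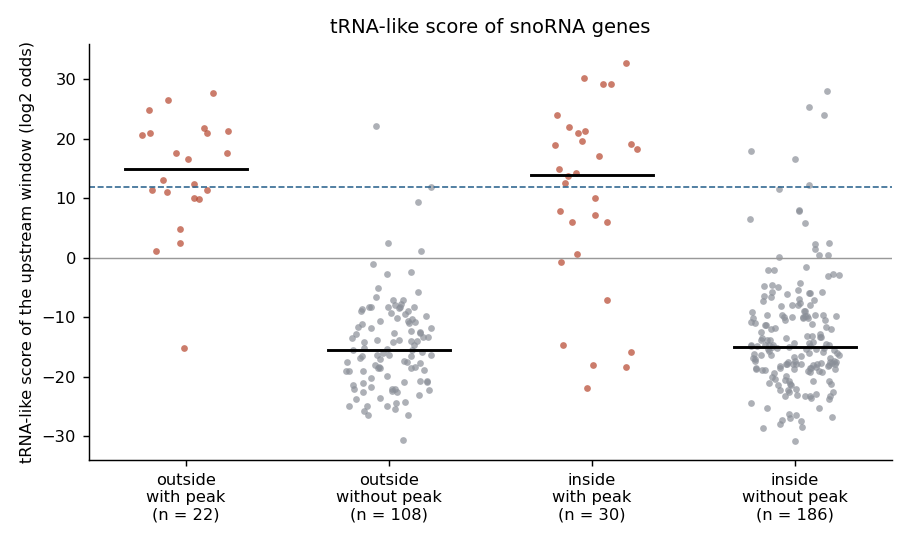
tRNA-like score of the upstream window (log2 odds, vertical axis) for snoRNA genes outside and inside coding genes, with and without a reproducible peak; points are genes, black lines are medians, the grey line is 0 and the dashed line is the score at the lowest 5% of tRNA gene bodies, 11.8. Medians are 14.9 and 13.9 for genes with a peak and -15.4 and -14.9 for genes without one.

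A run of T after the gene, known as a stop signal of RNA polymerase III, was also counted. TTTT was found within the 20 bases after the 3′ end in 18 of the 22 genes (81.8%, interval 59.7 to 94.8%), in 32 of the 108 (29.6%), in 35.7% of all nuclear genes and in 98.4% of tRNA genes. The 4 genes without it were F32E10.10, F30H5.4, F59C6.15 and K02C4.8.

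Words of 6 bases were also counted, on either strand. Ranked by the difference in share within 150 bases upstream, the leading word was GTTCGA, the usual core of the B box, at 10 of 22 genes with a peak and 7 of 108 without. Within 75 bp of the summit GTTCGA was present at 9 of 22 members (40.9%) at 104 of 320 other reproducible nuclear summits (32.5%), at 10 of 28 inside snoRNA summits (35.7%) and at 6.33% of joint-list summits. The word was thus about as common at other reproducible peaks, which include those at tRNA genes, as at the members. TCACGC, letters from the half-site that paired domains bind, was present at 2 of 22 member summits (9.09%, interval 1.12 to 29.2%) and at 3.0% of joint-list summits. Other reproducible nuclear summits held it in 15 of 320 cases (4.69%) and inside snoRNA summits in 1 of 28 (3.57%). Upstream, it was at 1 of 22 genes with a peak and 4 of 108 without. The word TATAAA was upstream of 7 of 22 genes with a peak (31.8%) and 16 of 108 without (14.8%).

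The snoRNAs themselves also differed between genes with and without a peak. Genes with a reproducible peak had a median length of 73.5 bases (range 62 to 173), and those without had 154 bases (range 64 to 344). Among members of at most 90 bases, 15 of 29 had a peak, against 7 of 101 longer ones. C/D letters, here ATGA within the first 20 bases and CTGA within the last 20, were in 11 of 22 genes with a peak and 6 of 108 without. H/ACA letters, ACA placed 6 bases from the 3′ end, were in 6 of 22 and 4 of 108. With a stricter C box, TGATGA, the C/D letters were in 2 of 22 and 3 of 108. C46C2.8 and C53B7.8 carried both H/ACA letters and the C/D letters with ATGA. Either kind was in 15 of 22 members with a peak and 10 of 108 without. Among inside snoRNA genes either kind was in 16 of 30 with a peak and 57 of 186 without. Of the 25 members with C/D or H/ACA letters 15 had a peak, and of the 105 with neither 7 had one. Most members without a peak thus carried neither set of letters at their annotated ends, and whether those annotations mark functional snoRNAs was not tested.

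Some members are near-identical copies with differing upstream sequences. C46C2.8 on chromosome IV and C53B7.8 on chromosome X were 94.5% identical over the snoRNA and 56.7% identical over 150 bases upstream, and both had a peak and a score above 0 (9.77 and 21.3). ZK643.9 on chromosome III was 94.7% identical to K09E9.5 on chromosome X, and 58.7% identical over 150 bases upstream. Only ZK643.9 had a reproducible peak, with scores of 11.3 at ZK643.9 and 9.42 at K09E9.5. F59C6.15 was 97.1% identical to Y67A10A.14 and 94.9% identical to F25H2.15, with upstream identities of 66% and 67.3%. Of these, F59C6.15 had a joint signal of 101, F25H2.15 had 31.7 and Y67A10A.14 had no joint-list region. How reads that match more than 1 place were treated is not given in the sources used here, and its part in the differences between copies was not tested.

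Genes for proteins that work with snoRNAs or with RNA polymerase III were looked up by name. Of 32 names listed, 27 were found in the annotation, and 1 had a reproducible peak within 500 bp of its 5′ end, against 0.956% of protein-coding genes. This was fib-1, which encodes fibrillarin, the methyltransferase of C/D snoRNPs, with signal 108 and a summit at -134 bp. A joint-list region was found at 8 of 27, against 15.8% of protein-coding genes, among them rpac-19 (72.2), a subunit shared by RNA polymerases I and III, and dkc-1 (55.1), which encodes dyskerin. The list also held genes of other functions, such as gar-1, an acetylcholine receptor gene, and nop-1, which is 1 of the 8. Another of the 8 is npp-13, a nucleoporin gene. These counts are too small to set the list apart from other coding genes.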

How the data were processed

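NPAX-4 ChIP-seq regions of late embryos were read from the deposited lists on ce11, the same assembly as WBcel235, and every region ended within the chromosome lengths of that genome. Per the deposited file descriptions, the authors made a relaxed list for each replicate with a control, a relaxed list for both replicates and an IDR-thresholded list. The aligner, peak caller and IDR limit were not given in the sources used here. Signal is the deposited value of each region and its scale is not stated. The offset from region start to summit is another deposited column, in other units (bases). Read counts are not in these lists, so depth is unknown, and intervals (95%) cover counting error over genes only. The ce10 lists were not used, and the control library is not analysed here.

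Members, gene lists, letters and the score were chosen with earlier results of these data known. The annotation was Ensembl release 115 with the RefSeq genome. With 1 condition, no test between groups was made. Named genes were all members with a reproducible peak and the 5 others of highest joint signal, plus those whose choice after seeing values is stated. The scoring of genes by summits was checked on simulated data, which did not cover the letters or the tRNA-like score. A pseudocount of 0.5 was used for the base frequencies. Intervals came from scipy 1.17.1 and figures from matplotlib 3.10.9, under Python 3.11.15 with pandas 2.3.3 and numpy 2.4.6. Alternatives covered distances of 250 and 1000 bp, the 5′ end alone, reduced or halved lists, other definitions of outside, each replicate alone and other sequence windows.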

Additional observations from a re-analysis of the deposited data

How the results depend on the processing

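The share with a reproducible peak (16.9%) ranged from 14.6% to 17.3% over the alternatives for distance, list and definition, and it was 16.2% and 16.9% without replicate 1 or replicate 2. Over all nuclear genes this share (1.61%) ranged from 0.851% with the halved list, which gave the 14.6%, to 1.9% at 1000 bp. The difference from inside genes ranged from 0.458 to 4.43 percentage points (2.73 and 3.03 without either replicate), the median summit position from -46 to -37 bp (both ends reached without a replicate), and the share of regions nearer to a snoRNA 5′ end stayed at 100%. Shares in single-replicate lists moved with distance: replicate 1 gave 33.8% at 250 bp and 56.2% at 1000 bp, and replicate 2 gave 39.2% at 250 bp; all nuclear genes moved too, to 24.4%, 41.1% and 24.3%. The cause was not tested. Alternatives for the letters were added after seeing the data. At the lowest 5% of tRNA scores in place of 0, 59.1% of genes with a peak and 0.926% of those without passed; with the window ending at the 5′ end, 81.8% and 3.7% scored above 0. Windows of 75 and 300 bases gave the same shares with a pair of box patterns, 50% and 0.926%. No paired analysis was possible because both replicates belong to 1 condition. Depth could not be weighed, since the lists hold no read counts.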
